A study of Mus musculus with 47 samples.

Results

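The Wnt target genes of the intestinal crypt were followed here through crypts and villi of mice with genetic or dietary risk factors for intestinal tumours. The set comprised 10 genes, chosen by name: the feedback regulators Axin2, Rnf43, Znrf3 and Nkd1, the transcription factors Tcf7, Myc, Sox9 and Sox4, the cell cycle gene Ccnd1 and the surface protein Cd44. A probe set, the group of array probes that reads 1 transcript, was taken as a member when the array annotation gave it a single gene symbol from that list. This gave 28 of the 45101 probe sets, which read 9 of the 10 genes. Tcf7 had no probe set under its symbol and is named only.

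In Wnt signalling, secreted Wnt proteins bind Frizzled receptors and LRP co-receptors, which stops the destruction complex built on Apc and Axin from degrading beta-catenin. Beta-catenin then enters the nucleus and activates genes with TCF/LEF factors. In the small intestine the pathway is active at the base of the crypt, where stem and proliferating cells lie, and declines towards the villus, which carries differentiated cells. Several of its targets feed back on it: Axin2 is a scaffold of the destruction complex, Rnf43 and Znrf3 remove Frizzled receptors from the surface, and Nkd1 acts on Dishevelled.

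All mice were C57BL/6, and crypts and villi of the small intestine were profiled separately on 47 Affymetrix 3' expression arrays, 24 of crypts and 23 of villi. In the genetic arm, Apc1638N/+ mice (1 mutated Apc allele), p21-/- mice (no functional Cdkn1a, which encodes the cell cycle inhibitor p21) and wild-type mice were 3 months old and ate the diet Ain76A. In the dietary arm, wild-type mice ate NWD1, NWD2 or the control diet Ain76A for 1 year. The labels do not describe the composition of NWD1 or NWD2. Each of the 12 groups had 4 arrays except NWD2 villi, which had 3. The labels do not say that replicates were separate animals, so p-values measure the spread between these samples, which may be technical. Levels are log2 values after quantile normalization, and a difference of 1 is a doubling. Levels of different probe sets are not compared with each other.

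The proliferation markers measured on every array separated the tissues, with mean levels of 11.39 to 13.21 on crypt arrays and 8.94 to 11.02 on villus arrays. Cdkn1a probe set 1421679_a_at was blank on all 8 p21-/- arrays and measured on the other 39 arrays. A second one, 1424638_at, was measured in p21-/- crypts at 11.69 ± 0.39 against 12.47 ± 0.71 in wild-type crypts (SD, n = 4 each); the labels do not say which of these lies in the deleted part. Apc itself (1420956_at) was at 10.73 ± 0.34 in Apc1638N/+ crypts and 10.53 ± 0.43 in wild-type crypts, less than 1 SD apart; an array that reads the transcript end need not see this allele. Between 14814 and 23355 probe sets had a value per array, fewest in p21-/- crypts (14814 to 17373, against 19091 to 22078 in wild-type crypts). No marker of fibroblasts and smooth muscle, endothelium, tuft cells, B cells or neurons was measured on every array.

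Among the members measured on at least 40 arrays, the levels of Sox4 and Cd44 followed each other most closely in crypts. The upstream part of their promoters, and of that of Axin2, the feedback scaffold, is shown to give the DNA next to the start sites. Each is the 250 bases before the RefSeq start, 5′ to 3′ on the gene's strand, from RefSeq on GRCm38.p6. Sox4 lies at chr13:28953700-28953949 on the minus strand, Cd44 at chr2:102901666-102901915 on the minus strand and Axin2 at chr11:108920099-108920348 on the plus strand. Capitals mark the core CTTTG of the TCF/LEF site, or its reverse complement CAAAG.
Sox4: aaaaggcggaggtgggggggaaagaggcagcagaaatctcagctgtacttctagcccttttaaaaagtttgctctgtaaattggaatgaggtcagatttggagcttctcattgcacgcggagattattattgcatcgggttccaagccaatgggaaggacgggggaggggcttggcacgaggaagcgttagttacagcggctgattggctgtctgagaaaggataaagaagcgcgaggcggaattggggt
Cd44: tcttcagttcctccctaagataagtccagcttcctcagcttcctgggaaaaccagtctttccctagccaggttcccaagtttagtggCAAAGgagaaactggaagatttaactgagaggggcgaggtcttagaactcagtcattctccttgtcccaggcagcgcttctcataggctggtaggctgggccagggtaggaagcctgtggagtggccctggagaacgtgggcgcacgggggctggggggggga
Axin2: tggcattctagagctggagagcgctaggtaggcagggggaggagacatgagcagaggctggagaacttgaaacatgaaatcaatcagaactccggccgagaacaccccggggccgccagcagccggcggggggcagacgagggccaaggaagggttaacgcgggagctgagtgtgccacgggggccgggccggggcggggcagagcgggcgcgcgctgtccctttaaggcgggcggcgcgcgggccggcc
Cd44 had 1 core match, at position -163 from the start, and Sox4 and Axin2 had none. The core occurred on either strand in the same 250 bases of 48.6% of all 32851 promoters. RefSeq windows were held for 6 members (8 windows: Axin2, Cd44, Nkd1, Rnf43, Sox4 and Tcf7). Over windows from 250 bases before to 50 after the start, none of the 8 held the longer site, the core followed by AT, AA or TT, on either strand, which 13.9% of all windows did. A match is a description of letters and not of binding, and these windows do not cover more distant elements. In base composition the Axin2 sequence held 69.2% G and C, Cd44 56.4% and Sox4 50.8%, against a median of 52.4% over all promoters.

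How often a member had a value at all already differed between the tissues. Of the 28 probe sets, 21 had a value on at least 1 array and 7 never did. No source used here explains the blanks, so they were neither filled nor read as absence. Sox9, a transcription factor of crypt progenitors and Paneth cells, was measured by 1451538_at on 23 of 24 crypt arrays and 9 of 23 villus arrays. Myc, which drives growth and proliferation, was measured on 23 crypt arrays and 15 villus arrays. Sox4 probe sets 1419156_at and 1419155_a_at had values on 23 and 20 crypt arrays and on 0 villus arrays. Ccnd1 probe sets 1417419_at and 1448698_at had values on 23 and 24 crypt arrays and on 9 and 16 villus arrays. These probe sets thus had more values in crypts. Axin2 (1436845_at), Sox4 (1433575_at) and both main Cd44 probe sets were measured on all 47 arrays.

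**Figure D1:**
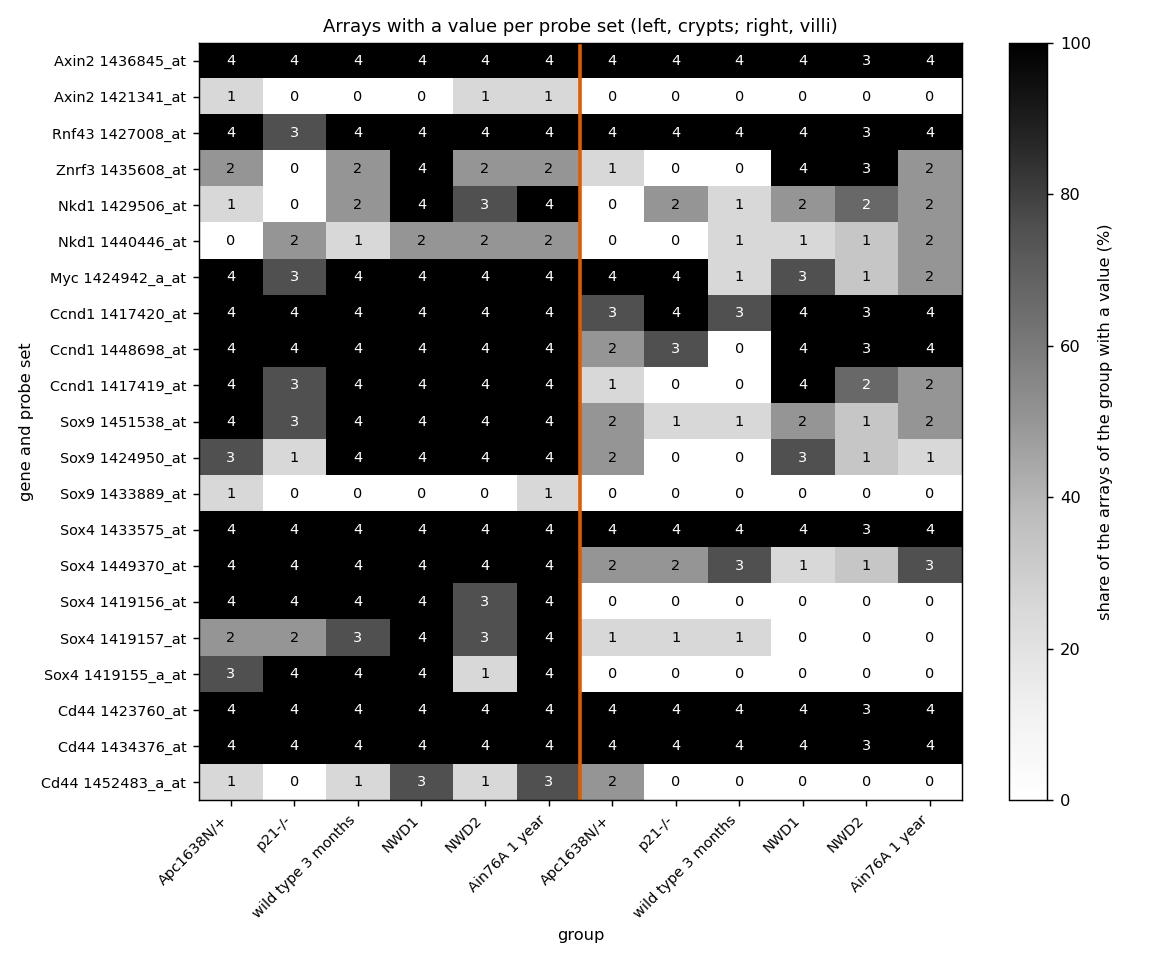
Number of arrays with a value for each of the 21 member probe sets measured at least once (rows), by group (columns; crypts left of the line, villi right); shading is the share of the group's arrays. Sox9, Myc, the Ccnd1 probe sets 1417419_at and 1448698_at and the Sox4 probe sets 1419156_at and 1419155_a_at have more values in crypts. Axin2 1436845_at, Sox4 1433575_at and the Cd44 probe sets 1423760_at and 1434376_at have a value on every array.

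In comparisons, each gene was represented by its probe set with most values. Of the 28 probe sets, 15 passed the filter on low values, and these covered 8 genes. Nkd1 did not pass: none of its values lay above the median of its array. A probe set that had to be well measured in both groups to be tested may owe its place to the group where it is high, so the members tested are not the whole set.

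Crypts were compared with villi in each of the 6 conditions, the axis along which Wnt signalling is graded. Sox4, Ccnd1 and, in 5 of the 6 conditions, Cd44 by 1434376_at were higher in crypts. Myc was higher in Apc1638N/+ and NWD1 crypts, and Znrf3 in NWD1 crypts. Among the feedback regulators, Axin2 was called in wild-type mice at 3 months, a call that did not hold without 1 villus array, and in no other condition, and Rnf43 in none of them. A call means an adjusted p under 0.05 in limma, with Benjamini-Hochberg adjustment over all probe sets tested. Called higher in crypts were 3 of 6 members tested in Apc1638N/+ mice, where 21.1% of all probe sets tested were higher and 21% lower, and 3 of 6 in p21-/- mice, where 23.6% were higher and 22.3% lower. In wild-type mice at 3 months 4 of 5 were higher, where 20.3% of all were higher and 27.8% lower, and on NWD1 5 of 7, where 22.2% were higher and 24.6% lower. On NWD2 it was 3 of 5, where 8.88% were higher and 7.02% lower, and on Ain76A at 1 year 3 of 5, where 26.5% were higher and 30.2% lower. In these 6 conditions no member was called lower at p under 0.05 in limma, adjusted or not. The median difference of the members tested lay between 0.97 and 1.65, beside medians of -0.14 to -0.01 over all probe sets tested.

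Axin2, the scaffold and a widely used reporter of the pathway, had levels of 9.33, 10.56, 10.52 and 9.40 in wild-type crypts at 3 months, against 9.30, 7.0003, 8.89 and 9.70 in wild-type villi. The groups overlapped, and villus array 2 lay far below the others. The difference was 1.23 ± 0.39 (SE, n = 4 each; limma adjusted p = 0.00866), and without villus array 2 it was 0.66 with adjusted p = 0.124; with only these groups in the fit the adjusted p was 0.0744. On NWD1, Axin2 stood at 9.84, 9.70, 9.62 and 9.72 in crypts, against 9.84, 9.73, 9.45 and 9.80 in villi. These overlapped fully, with a difference of 0.01 (95% interval -0.77 to 0.80; limma adjusted p = 0.979). On NWD2, crypts had 9.53, 9.47, 9.51 and 9.56, against 9.25, 9.48 and 9.89 in villi, a difference of -0.02 (95% interval -0.87 to 0.83; limma adjusted p = 0.977). On Ain76A at 1 year every crypt array lay above every villus array, with 10.15, 9.89, 10.08 and 9.97 in crypts against 8.81, 9.32, 9.50 and 9.51 in villi. That difference, 0.74 ± 0.39 (n = 4 each), missed the threshold (limma adjusted p = 0.102), and passed it under the deposited scaling (0.85, adjusted p = 0.0439), the median scaling (0.95, adjusted p = 0.0253) and a fit to these 2 groups alone (adjusted p = 0.00214). In Apc1638N/+ and p21-/- mice the differences were 0.81 and 0.85 (limma adjusted p = 0.0913 and 0.0716). The Apc1638N/+ value passed without crypt array 2 (1.11, adjusted p = 0.0271), and the p21-/- value passed with median scaling (0.99, adjusted p = 0.0269) and without crypt array 3 (1.23, adjusted p = 0.0114) or villus array 4 (1.07, adjusted p = 0.0371). The replicates of Axin2 spread more at 3 months than at 1 year in crypts, with SDs of 0.68 to 0.85 in the genetic arm and 0.04 to 0.12 in the dietary arm. Over the 6 conditions the mean difference was 0.60 ± 0.16 (limma adjusted p = 9.42e-04).

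Rnf43, which removes Frizzled receptors, was lower in crypts on average. Its levels were 8.02, 9.10, 9.50 and 8.56 in wild-type crypts at 3 months, against 9.02, 9.09, 9.27 and 9.06 in villi, and the groups overlapped. The difference ran from -0.55 in Apc1638N/+ mice to -0.19 on NWD1 and passed in no single condition (limma adjusted p of 0.21 to 0.675). Averaged over the 6 it was -0.38 ± 0.15 (limma adjusted p = 0.0201), where 40.5% of all probe sets tested were lower and 34.7% higher. With the deposited scaling it was -0.22 (adjusted p = 0.133) and with median scaling -0.18 (adjusted p = 0.213). In that average 4 of 5 members tested were higher and 1 lower.

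Znrf3, a relative of Rnf43 with the same action, was tested across the tissues on NWD1 only. It had 8.75, 8.87, 9.04 and 9.13 in NWD1 crypts, against 8.43, 8.28, 7.56 and 7.76 in NWD1 villi. All crypt arrays lay above all villus arrays, by 0.94 ± 0.23 (n = 4 each; limma adjusted p = 0.00272; 0.117 with blanks set to a floor). It was blank on all 8 p21-/- arrays and on all 4 villus arrays of wild-type mice at 3 months, so no fold is given there. Nkd1, which acts on Dishevelled, had levels of 7.16, 6.30, 6.51 and 6.24 in NWD1 crypts and of 7.17 and 5.96 on the 2 NWD1 villus arrays with a value. Its values overlapped between the tissues, and it was not tested.

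**Figure D2:**
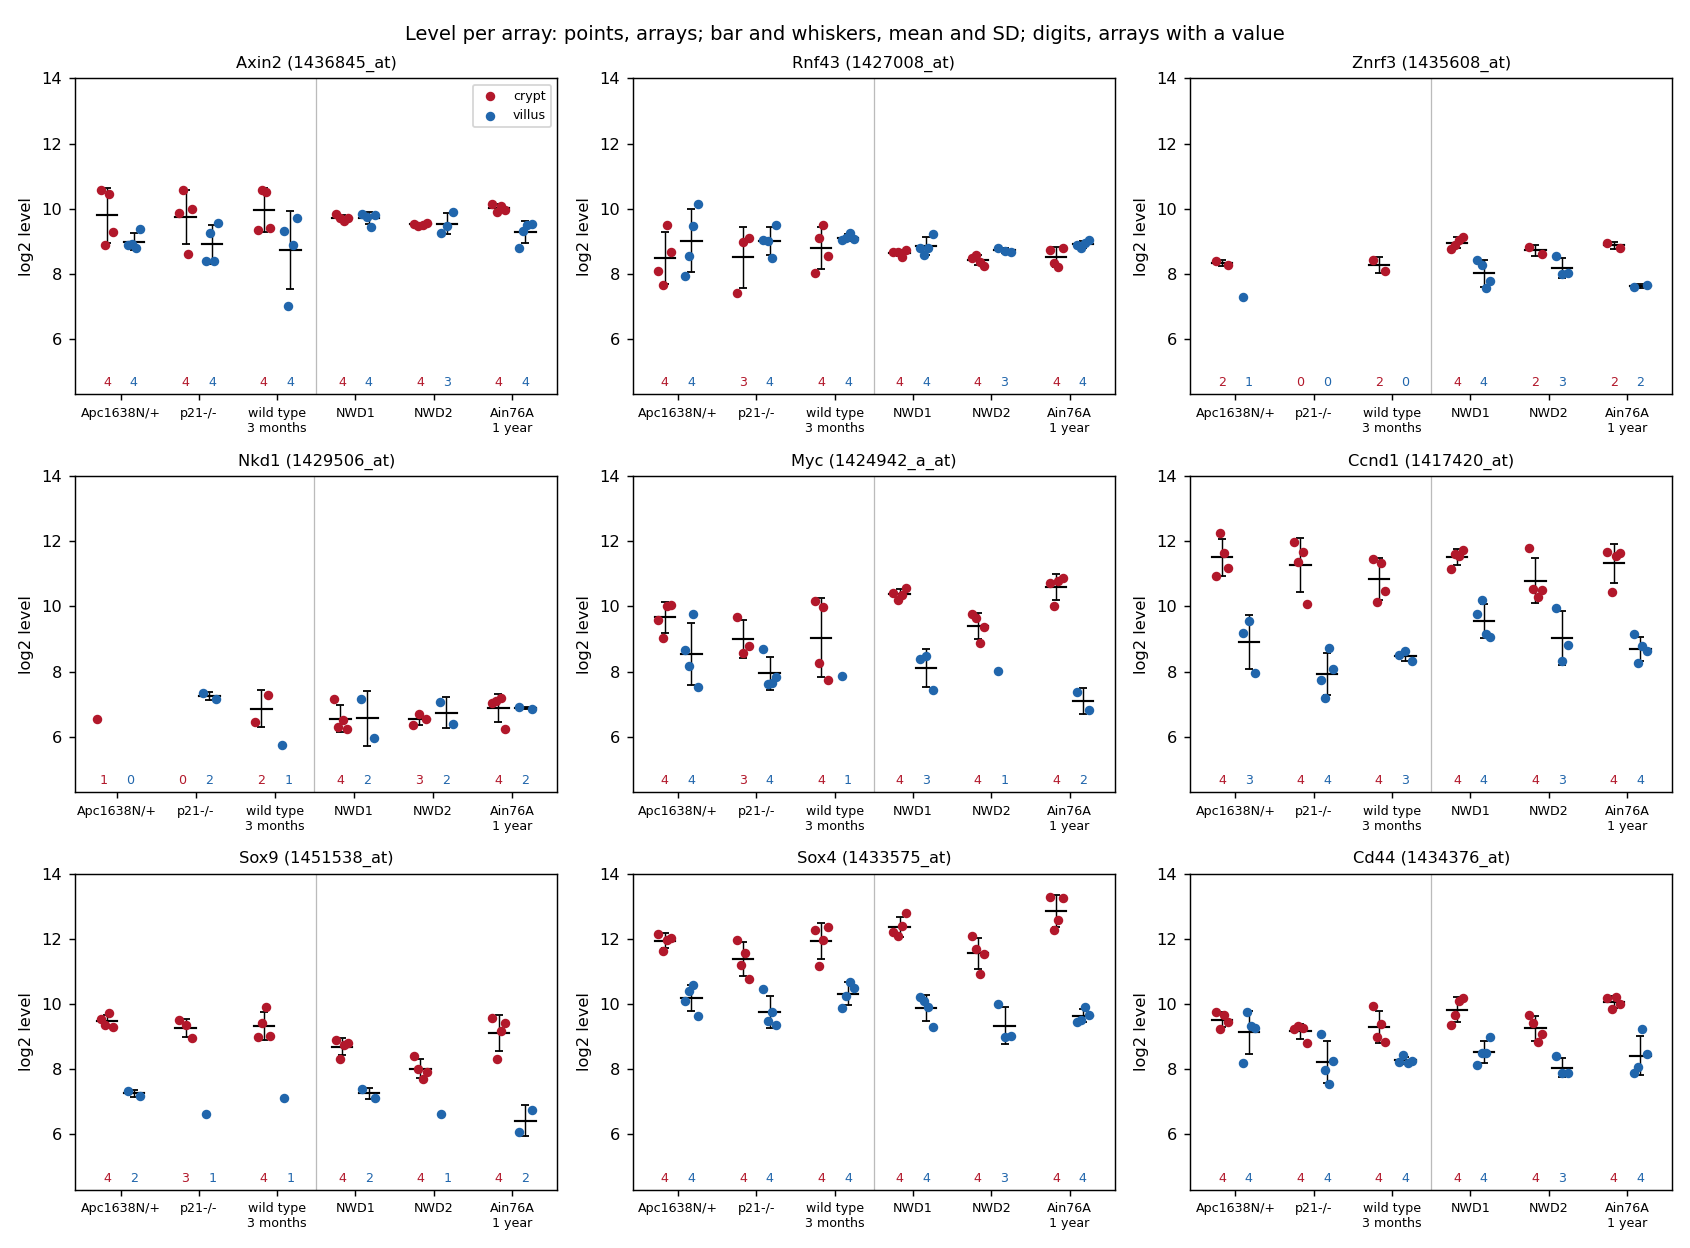
Log2 level of each member on every array (y) by condition (x; genetic arm left of the grey line), crypts in red left of villi in blue, with mean and SD and the number of arrays with a value. Sox4 and Ccnd1 crypt points lie above the villus points in every condition, while Axin2 and Rnf43 points mix in most.

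Sox4, a transcription factor of progenitors and early secretory cells, was higher in crypts in all 6 conditions. Its levels were 13.29, 12.28, 12.60 and 13.27 in Ain76A crypts at 1 year, against 9.47, 9.53, 9.91 and 9.67 in villi. In wild-type mice at 3 months they were 12.28, 11.17, 11.97 and 12.38 in crypts, against 9.89, 10.25, 10.67 and 10.51 in villi. No crypt array overlapped a villus array of the same condition. The difference ran from 1.62 ± 0.29 in p21-/- mice (limma adjusted p = 2.56e-05) to 3.22 ± 0.29 on Ain76A at 1 year (limma adjusted p = 3.17e-11), with a mean over conditions of 2.16 ± 0.12. A second probe set, 1449370_at, was tested in 2 conditions and was higher by 1.45 in wild-type mice at 3 months (adjusted p = 0.00596) and by 2.496 on Ain76A at 1 year (adjusted p = 1.08e-05). The Sox4 probe sets did not all follow each other: the r of 1433575_at with 1419155_a_at was 0.05 over 20 crypt arrays. With 1449370_at it was 0.74 over 36 arrays, 24 of crypts and 12 of villi. The gap between the tissues enters the latter r and not the former, so they are not compared.

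Ccnd1 encodes cyclin D1, which carries cells through G1. Its levels were 11.98, 11.35, 11.68 and 10.07 in p21-/- crypts, against 7.75, 7.19, 8.73 and 8.06 in p21-/- villi. No p21-/- crypt array overlapped a villus array, and the difference of 3.34 ± 0.41 (n = 4 each; limma adjusted p = 4.18e-08) was the highest of the 6. The lowest was on NWD2, 1.76 ± 0.44 (limma adjusted p = 0.00573), and the mean was 2.44 ± 0.17. Without NWD2 villus array 2 or 3 the NWD2 value missed the threshold (adjusted p = 0.0883 and 0.0579). Its probe set 1448698_at gave 3.19 in p21-/- mice and 1.25 on NWD2.

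Myc had 10.42, 10.20, 10.35 and 10.57 in NWD1 crypts, against 8.40, 8.47 and 7.42 on the 3 NWD1 villus arrays with a value. It was higher in NWD1 crypts by 2.29 ± 0.47 (limma adjusted p = 1.79e-04), with no overlap. In Apc1638N/+ mice the groups overlapped, with 9.57, 9.02, 10.02 and 10.03 in crypts against 8.65, 8.17, 9.78 and 7.52 in villi. The difference there was 1.13 ± 0.43 (limma adjusted p = 0.034), and it missed the threshold without crypt array 1, 3 or 4 or villus array 2 or 4 (adjusted p of 0.0515 to 0.163). In p21-/- mice it was 1.06 ± 0.47 (limma adjusted p = 0.0619).

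Cd44, an adhesion receptor for hyaluronan, had 10.18, 9.85, 10.23 and 10.02 in Ain76A crypts at 1 year, against 7.88, 8.07, 9.25 and 8.46 in villi. No array overlapped, and the difference was 1.65 ± 0.29 (n = 4 each; limma adjusted p = 8.42e-06). In Apc1638N/+ mice the levels were 9.76, 9.24, 9.66 and 9.44 in crypts, against 8.21, 9.76, 9.35 and 9.26 in villi. There the groups overlapped, and the difference of 0.38 ± 0.29 missed the threshold (limma adjusted p = 0.303). On NWD2 it was 1.203 ± 0.32 (limma adjusted p = 0.00823), and missed the threshold without villus array 2 or 3 (adjusted p = 0.066 and 0.0752). These Cd44 values are by 1434376_at. By the other main probe set, 1423760_at, the crypt mean lay above the villus mean in every condition. In p21-/- mice its groups overlapped, at 8.48 ± 0.73 in crypts against 8.10 ± 0.40 in villi (SD, n = 4 each). The p21-/- call thus rests on 1434376_at. T cells also carry Cd44, and the lymphocyte markers were lower in crypts in the genetic arm (7 of 7, 4 of 4 and 8 of 8 markers tested in Apc1638N/+, p21-/- and wild-type mice) and for 5 of 8 on Ain76A at 1 year, against 0 of 8 on NWD1 and 0 of 7 on NWD2. Of 2 myeloid markers tested, a cell type that also carries Cd44, 2 were higher in crypts on Ain76A at 1 year (median 2.15) and 1 in each other condition. The part of either in the Cd44 values was not tested.

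**Figure D3:**
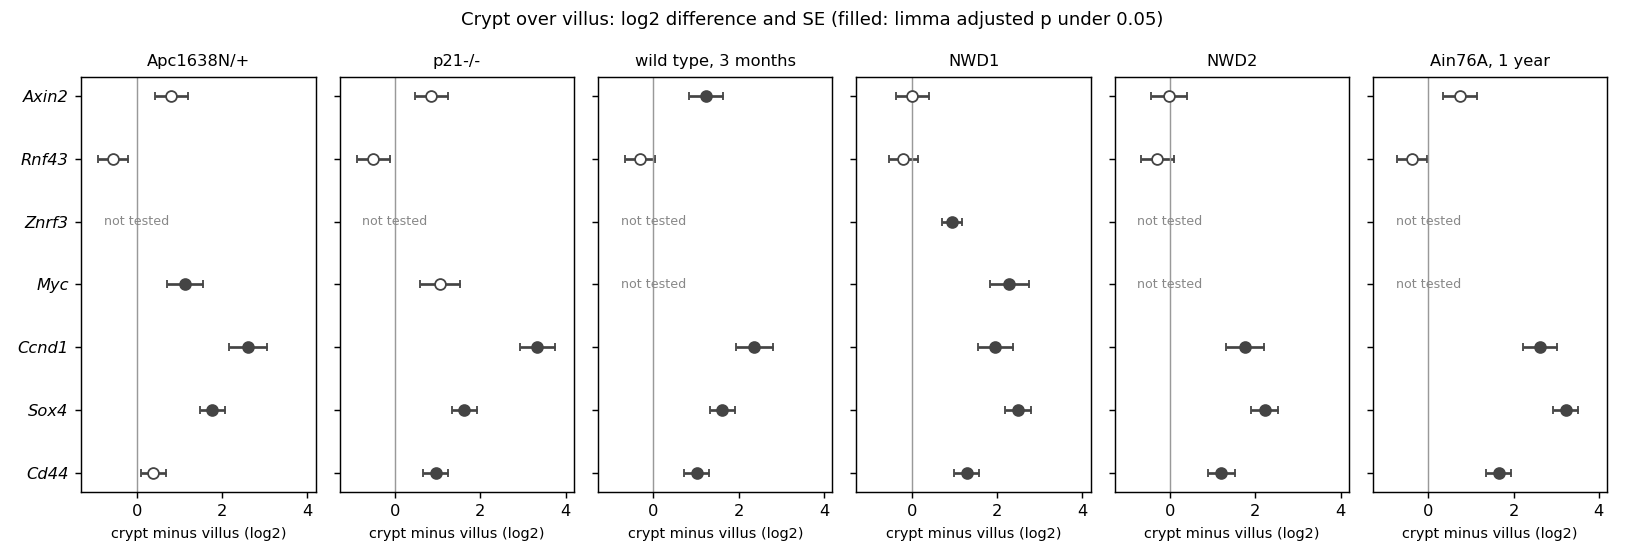
Crypt minus villus difference on the log2 scale (x) with its SE for each member (rows) in 6 conditions (panels); filled points passed limma's adjusted threshold. Sox4 and Ccnd1 are filled in all 6 panels, Axin2 in that of wild-type mice at 3 months alone, and Rnf43 in none.

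Whether a risk factor altered this gradient was tested as a difference of differences. No member was called in any of the 4 tests (limma; 1 member, Sox4, had an unadjusted p under 0.05, on NWD2). Of all probe sets, 0% were called in either direction for Apc1638N/+, 1.16% higher and 0.547% lower for p21-/-, 0% for NWD1, and 0.198% higher and 0.0456% lower for NWD2. The Sox4 difference between crypt and villus was smaller by 0.99 ± 0.43 on NWD2 than on Ain76A (difference -0.99, 95% interval -1.87 to -0.12; limma adjusted p = 0.195).

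Apc1638N/+ tissue was compared with wild-type tissue because Apc belongs to the complex that degrades beta-catenin. No member was called in crypts (limma; 0 of 7 tested, also 0 at an unadjusted p under 0.05), where 0.0715% of all probe sets were called higher and 0.0238% lower. Axin2 had 10.57, 8.88, 10.45 and 9.28 in Apc1638N/+ crypts, against 9.33, 10.56, 10.52 and 9.40 in wild-type crypts. These overlapped, with a difference of -0.16 (95% interval -0.95 to 0.63). The intervals ran from -0.26 to 1.497 for Myc, from -0.17 to 1.48 for Ccnd1 and from -0.59 to 0.60 for Sox4, so that a doubling of Myc or Ccnd1 lies within them and a doubling of Sox4 does not. Sox9 (0.14), Cd44 (0.23) and Rnf43 (-0.32) overlapped too. In villi 0 of 5 were called in limma, where 0% of all probe sets were called in either direction. Cd44 had the 1 unadjusted p under 0.05 there, with 8.21, 9.76, 9.35 and 9.26 in Apc1638N/+ villi against 8.21, 8.42, 8.21 and 8.27 in wild-type villi. It was 0.86 ± 0.29 higher (unadjusted p = 0.00544, limma adjusted p = 0.786), and 3 of the 4 Apc1638N/+ arrays lay above all wild-type arrays. By the other main Cd44 probe set, 1423760_at, the difference was smaller. It was at 8.74 ± 0.58 in Apc1638N/+ villi against 8.34 ± 0.64 in wild-type villi (SD, n = 4 each), with overlap.

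In p21-/- crypts 0 of 7 members were called (limma; 0 at an unadjusted p under 0.05), beside 2.89% of all probe sets called higher and 1.56% lower. Sox4 had 11.98, 11.20, 11.58 and 10.78 in p21-/- crypts, against 12.28, 11.17, 11.97 and 12.38 in wild-type crypts. The groups overlapped, with a difference of -0.57 ± 0.29 (limma adjusted p = 0.282). The Sox4 probe set 1419156_at stood on the other side, at 1.03 ± 0.38 (adjusted p = 0.122), so the probe sets of Sox4 disagree in direction. Ccnd1 was at 0.42 (95% interval -0.40 to 1.24), Axin2 at -0.21, Myc at -0.04, Sox9 at -0.06, Cd44 at -0.13 and Rnf43 at -0.29, all overlapping. In p21-/- villi 0 of 5 were called, none at an unadjusted p under 0.05, where 0.0233% of all probe sets were higher and 0.0155% lower in limma.

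NWD1 left no member called in crypts (limma; 0 of 7 tested, 0 at an unadjusted p under 0.05), where 0% of all probe sets were called in either direction. Sox4 had 12.21, 12.11, 12.41 and 12.80 in NWD1 crypts, which overlapped the Ain76A crypts given above, a difference of -0.48 (95% interval -1.07 to 0.11). Axin2, at 9.62 to 9.84 in NWD1 crypts against 9.89 to 10.15 in Ain76A crypts, did not overlap, with a difference of -0.30 (95% interval -1.09 to 0.48). That interval uses the spread shared over the 12 groups, while the SDs in NWD1 and Ain76A crypts were 0.09 and 0.12. With only these groups in the fit Axin2 was not called either. Sox9 was at -0.42, Cd44 at -0.24, Myc at -0.21, Ccnd1 at 0.19 and Rnf43 at 0.13, and these overlapped. In NWD1 villi 0 of 5 were called in limma, beside 0.0501% of all probe sets higher and 0.00716% lower. Ccnd1 had the 1 unadjusted p under 0.05, at 0.84 ± 0.41 (limma adjusted p = 0.969).

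Sox4 and Sox9 were lower in NWD2 crypts than in Ain76A crypts. Myc, Axin2 and the main Cd44 probe set did not overlap between these groups either, and did not pass the test. The share of all probe sets without overlap was not counted, so the lack of overlap is a description only. Of all 13891 probe sets tested, 3527 had an unadjusted p under 0.05 in limma. Sox4 had 12.08, 11.68, 10.93 and 11.55 in NWD2 crypts, against 13.29, 12.28, 12.60 and 13.27 in Ain76A crypts, with no overlap. Sox4 was lower in NWD2 crypts (difference -1.299 ± 0.29, n = 4 each; limma adjusted p = 0.00438). Sox9 had 8.41, 8.004, 7.72 and 7.93 in NWD2 crypts, against 9.59, 8.33, 9.17 and 9.41 in Ain76A crypts, where Ain76A array 2 overlapped NWD2 array 1. Its difference was -1.11 ± 0.26 (limma adjusted p = 0.00897), by 1451538_at. A second Sox9 probe set, 1424950_at, did not pass the filter on low values and was not tested. It was at 7.41 ± 0.39 in NWD2 crypts against 7.94 ± 0.43 in Ain76A crypts (SD, n = 4 each), with overlap. Of 7 members tested 2 were lower, where 3.22% of all probe sets were called lower and 5.67% higher. The median difference of the members was -0.82, against -0.07 over all probe sets tested.

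The other members gave intermediate values. Myc had 9.75, 9.65, 8.87 and 9.37 in NWD2 crypts, against 10.72, 10.02, 10.78 and 10.88 in Ain76A crypts, with no overlap. Its difference was -1.19 ± 0.43 (limma adjusted p = 0.0763). Cd44 was at -0.82 ± 0.29 (adjusted p = 0.0707) by 1434376_at and fell by 1.19 (adjusted p = 0.0218) by 1423760_at. Of the 13 member probe sets tested 5 were lower: those of Sox4 also included 1419156_at (-1.51, adjusted p = 0.0242) and 1419157_at (-1.23, adjusted p = 0.0166), both on the 3 NWD2 arrays with a value, while 1449370_at (-1.198, adjusted p = 0.0516) was not called. Axin2 had 9.53, 9.47, 9.51 and 9.56 in NWD2 crypts, all below the 9.89 to 10.15 of Ain76A crypts, a difference of -0.51 ± 0.39 (limma adjusted p = 0.429). With only these 2 groups in the fit, Axin2, Myc and Cd44 passed (adjusted p = 0.0136, 0.00764 and 0.0125). Ccnd1 was at -0.53 (limma adjusted p = 0.423) and Rnf43 at -0.09 (adjusted p = 0.9), both overlapping between the groups.

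Other values moved with these. Of 11 enterocyte markers tested 8 were higher in NWD2 crypts (median difference 1.34), of 9 proliferation markers 5 were lower (median -1.14), and of 4 stem cell markers 1 was lower. The mean enterocyte level was 14.25, 15.09, 15.39 and 14.95 on NWD2 crypt arrays, against 13.33, 14.02, 14.09 and 13.07 on Ain76A crypt arrays, and NWD2 array 3 had both the highest enterocyte and the lowest proliferation level (11.39). With the enterocyte level as a covariate, a setting chosen after seeing the data, Sox4 was at -0.55 (adjusted p = 0.758) and Sox9 at -0.84 (adjusted p = 0.651). Over all probe sets 1 was then called higher and 1 lower in place of 788 and 447. The enterocyte levels of these groups did not overlap, so this setting can hardly separate them from diet. No conclusion is drawn from the loss of calls. Without NWD2 array 3 neither gene was called (Sox4 -1.09, adjusted p = 0.0509; Sox9 -1.01, adjusted p = 0.0606), and without Ain76A array 1 Sox9 was not (adjusted p = 0.0521). In bulk samples a smaller share of crypt cells and less RNA per cell cannot be told apart. In NWD2 villi 0 of 5 members were called in limma, none at an unadjusted p under 0.05, beside 0.0586% of all probe sets higher and 0.234% lower.

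**Figure D4:**
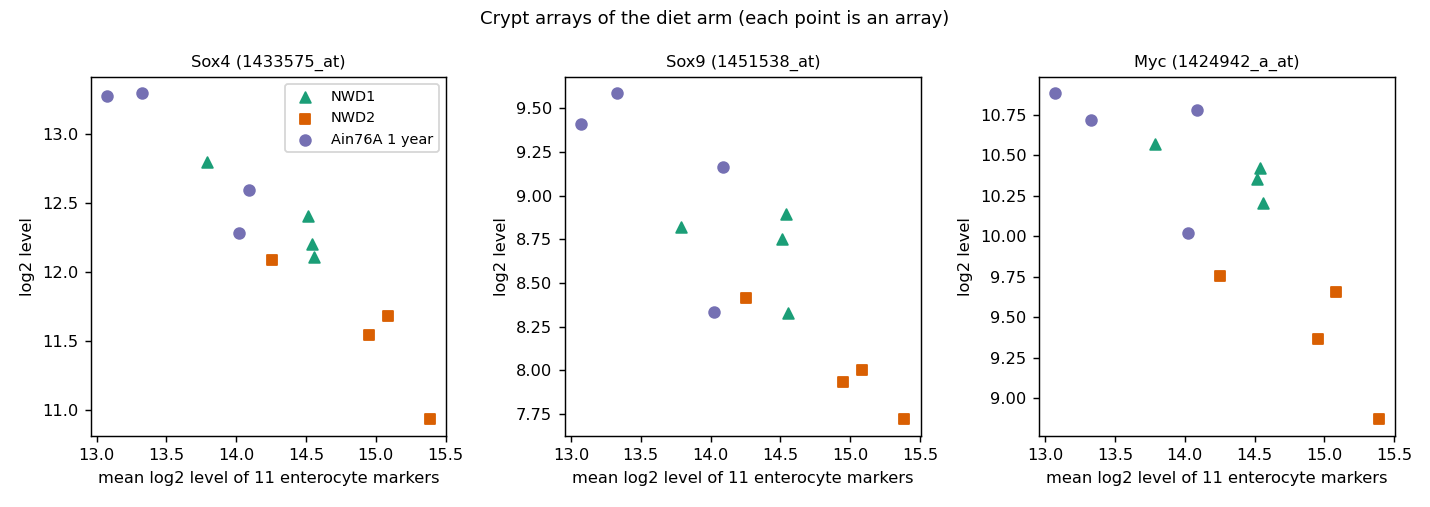
Level of Sox4, Sox9 and Myc (y, log2) against the mean log2 level of 11 enterocyte markers (x) on the 12 crypt arrays of the dietary arm; the axes do not start at 0. NWD2 arrays lie to the lower right, at enterocyte levels of 14.25 to 15.39, and Ain76A arrays to the upper left, at 13.07 to 14.09.

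Mice on Ain76A at 1 year were compared with those at 3 months, where age and arm of the study cannot be told apart. In crypts Myc was higher, with 10.72, 10.02, 10.78 and 10.88 at 1 year, against 10.17, 8.27, 9.99 and 7.73 at 3 months. The highest 3-month array lay above the lowest 1-year array, and the difference was 1.56 ± 0.43 (n = 4 each; limma adjusted p = 0.0135). Sox4 was higher by 0.91 ± 0.29 (limma adjusted p = 0.0302). Thus 2 of 7 members were higher, where 9.33% of all probe sets were called higher and 6.68% lower. In the same comparison 5 of 11 enterocyte markers were lower (median -0.81), 4 of 7 enteroendocrine markers were higher (median 1.25) and 1 of 9 proliferation markers was higher; their part in these values was not tested. Cd44 was at 0.78 (limma adjusted p = 0.0623), Axin2 at 0.07, Sox9 at -0.22 and Rnf43 at -0.28. Ccnd1 differed between its probe sets, with 0.47 (adjusted p = 0.445) by 1417420_at and 1.16 (adjusted p = 0.0202) by 1417419_at, as did Sox4, with 1.83 (adjusted p = 0.001) by 1419157_at and -0.03 (adjusted p = 0.969) by 1449370_at. Wild-type crypt arrays 2 and 4 at 3 months had enterocyte levels of 15.11 and 15.00, against 13.22 and 14.42 on arrays 1 and 3. Without arrays 2 and 4, 0 of 7 members were called (Myc 0.52, adjusted p = 0.63; Sox4 0.74, adjusted p = 0.294). Myc was also lost without array 2 (adjusted p = 0.0878) or 4 (0.0811) alone, and Sox4 without wild-type array 2 (0.203) or Ain76A array 1 (0.102) or 4 (0.0967). With the enterocyte level as a covariate Myc was at 0.98 (adjusted p = 0.157) and Sox4 at 0.44 (adjusted p = 0.348). In villi 0 of 5 were called in limma and 1, Sox4, had an unadjusted p under 0.05 (-0.69, limma adjusted p = 0.103), beside 7.45% of all probe sets higher and 8.74% lower.

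**Figure D5:**
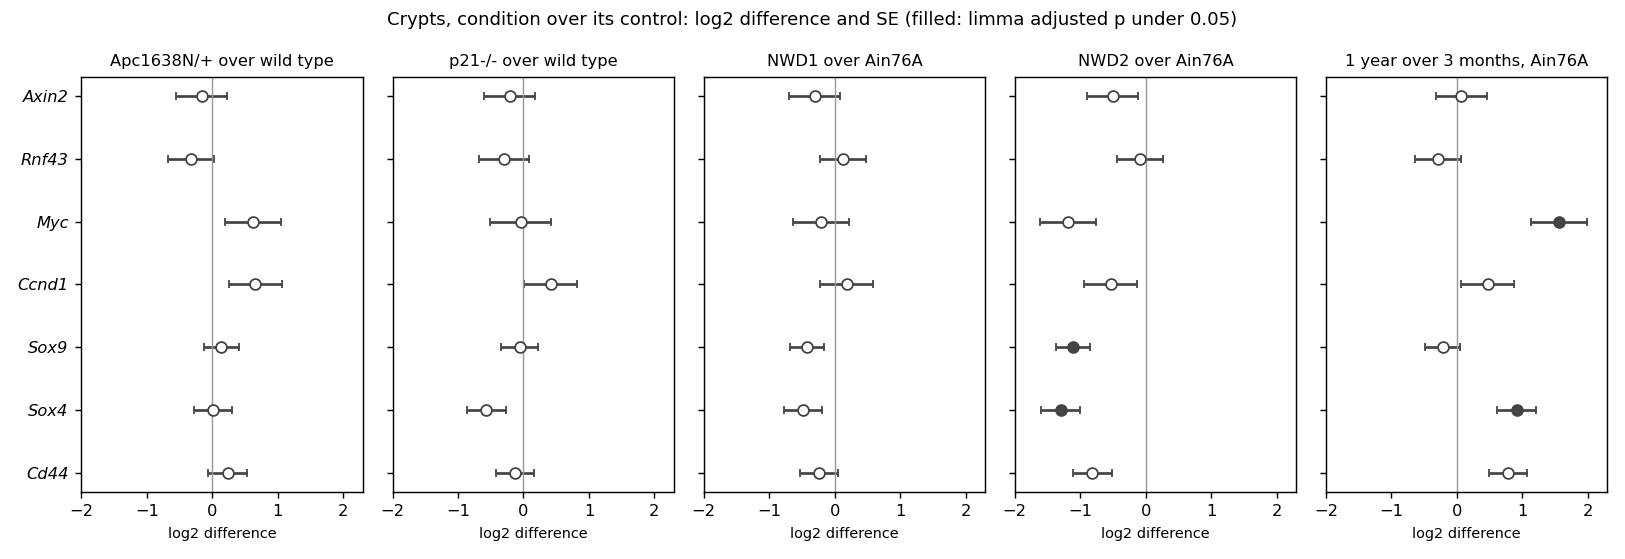
Difference between each condition and its control in crypts (x, log2, with SE) for 7 members (rows) in 5 comparisons (panels); filled points passed limma's adjusted threshold. Filled points are Sox9 and Sox4 on NWD2, below 0, and Myc and Sox4 at 1 year, above 0; the Apc1638N/+, p21-/- and NWD1 panels have none.

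By the probe set that represents each gene, the means of all 6 crypt groups lay above those of all 6 villus groups for Sox4, Ccnd1 and Cd44. For Cd44, p21-/- crypts (9.17 ± 0.24) stood next to Apc1638N/+ villi (9.14 ± 0.66), less than their spread apart. By the other main Cd44 probe set, 1423760_at, this order did not hold. There p21-/- crypts (8.48 ± 0.73) lay below Apc1638N/+ villi (8.74 ± 0.58). Sox4 was highest in Ain76A crypts at 1 year (12.86 ± 0.50) and lowest in NWD2 villi (9.34 ± 0.58). For Sox9 the 6 crypt groups ran from Apc1638N/+ (9.48 ± 0.19) to NWD2 (8.02 ± 0.29), with NWD1 (8.70 ± 0.25) the next lowest. Axin2 ran from Ain76A crypts at 1 year (10.02 ± 0.12) to wild-type villi at 3 months (8.72 ± 1.196), and no neighbouring groups in its order differed by more than the SD within groups of 0.58.

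Sox4 and Cd44 followed each other over 47 arrays (Pearson r 0.84), over crypt arrays (0.81, n = 24) and less over villus arrays (0.42, n = 23). Ccnd1 followed Sox4 over all arrays (r 0.86, n = 45), and in crypts at 0.49 (n = 24). Axin2 stood apart in crypts, with r of 0.05 to Sox4 and 0.54 to Rnf43 (n = 24 and 23). The arrays share tissue and RNA preparation, so these are descriptions. Among other genes measured on all arrays, the nearest to Sox4 were Snhg1, Eif4a1 and Exosc8 (r 0.94 each), to Ccnd1 Fam98b, Slc7a1 and Cks1b (0.94 each) and to Cd44 Marcks, Tfdp1 and Actn1 (0.86, 0.85 and 0.84). Those nearest to Axin2 (Rab3ip, 0.75) and Rnf43 (Wdr26, 0.73) were less near.

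Other Wnt genes were followed through lists. Of 43 listed symbols of other target genes, some of them aliases of 1 gene, 10 could be tested over the mean of the 6 conditions. Of these 10, 6 were higher in crypts and 1 lower, where 34.7% of all probe sets were higher and 40.5% lower. The lower one was not among the 6 genes with the smallest adjusted p, which are named here. Slc12a2, an ion cotransporter, was higher by 3.04 ± 0.17 (limma adjusted p = 9.72e-19), the actin-binding protein Enc1 by 1.22 ± 0.09, the cyclin Ccnd2 by 1.57 ± 0.14 and the surface protein Prom1 by 1.52 ± 0.14. The transcription factors Tgif1 (1.14) and Jun (0.93) were higher too. In NWD2 crypts 3 of 17 were lower and 0 higher, where 3.22% of all were lower and 5.67% higher: Ccnd2 (-1.23, limma adjusted p = 0.0144), Birc5, a mitotic gene that is also among the proliferation markers (-1.31, adjusted p = 0.0212), and Prom1 (-1.09, adjusted p = 0.032). In p21-/- crypts the Paneth cell products Pla2g2a (1.99, limma adjusted p = 5.99e-04) and Mmp7 (1.62, adjusted p = 0.0141) were higher, 2 of 17 where 2.89% of all were higher, as were 3 of 6 Paneth markers, a list that shares both. In Apc1638N/+ and NWD1 crypts 0 of 17 were called in limma.

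Of 64 components of the pathway itself, 21 could be tested over the mean of the 6 conditions; 6 were higher in crypts and 8 lower. These shares lie near those of all probe sets in that comparison, 34.7% higher and 40.5% lower. The receptor Fzd5 was higher by 1.12 ± 0.14 (limma adjusted p = 3.37e-09) and the R-spondin receptor Lgr4 by 0.79 ± 0.13 (adjusted p = 5.19e-07). The kinase Gsk3b (-0.88), the tankyrase Tnks (-0.80), beta-catenin itself (Ctnnb1, -0.54) and the corepressor Tle3 (-1.13) were lower. In p21-/- crypts the co-receptor Lrp6 was lower (-0.91, limma adjusted p = 0.0344), 1 of 22, where 1.56% of all probe sets were lower and 2.89% higher. In NWD2 crypts 0 of 23 were called in limma, where 3.22% of all were lower and 5.67% higher.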

How the data were processed

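The authors deposited 1 log2 expression value per probe set and array, made with GCOS per the submitters' processing notes; no version or genome build is given. Of all cells 55.2% were blank and were kept blank. From these values, the 8404 probe sets measured on every array were quantile normalized and the others placed by monotone interpolation, since trimmed means of arrays differed by 1.44 times. A probe set was kept when above its array's median on at least 3 arrays (14977 kept) and tested when measured on at least 3 arrays of each group compared. limma 3.58.1 in R 4.3.3 fitted a one-way model over the 12 groups with a trend in the prior variance, and p-values were adjusted by Benjamini-Hochberg over all probe sets tested in each of 21 comparisons. A gene was represented by its probe set measured on most arrays, ties by mean level. The number of arrays limits the precision. The procedure was tested on simulated data. The rule for named genes took all members, and from the 2 Wnt lists up to 6 genes per comparison with the smallest adjusted p. Genes, lists and the test settings were chosen with earlier results of these data known. Alternatives were the scaling, the filter, the treatment of blanks, the probe set, the arrays in the fit, the prior, the replicate block, covariates and leaving out arrays. Replicate numbers were taken to pair samples where every same-numbered pair of a comparison correlated over 0.1 in its deviations from group means. This held for crypts and villi on NWD2 (0.28 to 0.48, 3 pairs) and for no other comparison (15 of 23 crypt and villus pairs over 0.1, median 0.16, -0.23 to 0.54; 12 of 31 pairs between conditions).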

Additional observations from a re-analysis of the deposited data

Results flagged for a closer look

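In 3 of the 68 groups of 4 measured arrays examined, 1 array lay far from the other 3; chance alone gives about 1 in 20 groups. Ccnd1 was at 11.80 on NWD2 crypt array 1, with the others between 10.30 and 10.53. Ccnd1 was at 10.43 on Ain76A crypt array 2 at 1 year, with the others between 11.56 and 11.66. Nkd1 was at 6.23 on Ain76A crypt array 4 at 1 year, with the others between 7.02 and 7.18.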

How the results depend on the processing

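No called value changed sign under the alternatives run. Counts of members called that moved by over 1.5 times were as follows. With blanks set to a floor, 8 members could be tested across the tissues in place of 5. Of these 8, 5 were higher in crypts on NWD2, 5 on Ain76A at 1 year and 7 in the mean of the 6 conditions. With median scaling, 5 were higher in p21-/- crypts than villi, and 0 lower in the mean (also 0 with the deposited scaling). The stricter filter gave 0 lower in the mean because Rnf43 was then not tested (4 members tested in place of 5). Median scaling also gave 1 lower in Ain76A villi at 1 year than in villi at 3 months. With only the groups compared in the fit, 5 were lower in NWD2 crypts, 0 higher in crypts at 1 year, 1 lower in villi at 1 year, and 1, Axin2, lower in the difference of differences on NWD2 (-0.76, adjusted p = 0.0469). In NWD2 crypts 1 was lower with the stricter filter, under which Sox9 was not tested (5 members tested in place of 7). With the enterocyte covariate, chosen after seeing the data, 0 of 7 were lower there. In crypts at 1 year 1 was higher with the deposited scaling, 1 with the number of measured probe sets as a covariate, 0 with the enterocyte covariate and 0 without wild-type crypt arrays 2 and 4. Leaving out 1 array gave 1 to 4 higher and 0 to 1 lower across the tissues in Apc1638N/+ mice (1 higher without villus array 2 or 4; 1 lower, Rnf43, without crypt array 3 or villus array 1). It gave 2 to 4 higher in wild-type mice at 3 months (2 without villus array 2), 1 to 3 on NWD2 (1 without villus array 2 or 3), 0 to 3 lower in NWD2 crypts (0 without NWD2 array 3, 1 without Ain76A array 1), and 0 to 3 higher in crypts at 1 year (0 without wild-type array 2; 1 without wild-type array 4 or Ain76A array 1 or 4). The causes were not tested. Replicate numbers met the rule for pairing between crypts and villi on NWD2 alone; with the replicate block no NWD2 call between the tissues changed, no count moved by over 1.5 times, and Myc passed across the tissues in p21-/- mice (0.96, adjusted p = 0.0348) and in NWD2 crypts (-1.19, adjusted p = 0.0364). Of the single-gene values under the alternatives, 34 lost a call, 22 gained one and 2205 kept their side of the threshold, among which 98 changed sign, none of them called.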
